A study of Mus musculus and Mus musculus
Rattus norvegicus with 30 samples.

Results

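Enzymes that write, copy and remove DNA methylation were followed as 9 genes: the methyltransferases Dnmt1, Dnmt3a and Dnmt3b, their cofactor Dnmt3l, the maintenance factor Uhrf1, the dioxygenases Tet1, Tet2 and Tet3, and the glycosylase Tdg. They were chosen by name, with earlier results of these data known. All 9 were found among the 19919 genes of the mESC tables, the 34923 genes of the mouse allele table and the 25245 genes of the rat allele table. Open chromatin and Cdx2 binding were added from peaks inside the genes or within 30 kb of their starts.

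DNA methylation places a methyl group on cytosine, mostly at CG dinucleotides. Dnmt3a and Dnmt3b methylate new sites, and Dnmt3l, which has no catalytic activity of its own, binds and stimulates them. Uhrf1 recognises CG sites that carry the mark on a lone strand after replication and recruits Dnmt1, which copies the mark. Tet enzymes oxidise methylcytosine, and Tdg removes the more oxidised forms so that base excision repair can restore plain cytosine. In mouse embryos and their stem cells, naive pluripotency goes with low global methylation and high Tet1 and Tet2, and the trophoblast lineage keeps lower methylation than the embryo proper.

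The study asked whether Cdx2, a homeodomain factor that directs trophoblast fate, acts alike when its sequence is from mouse (mCdx2) or rat (rCdx2), and whether regulatory DNA of the 2 rodents answers it alike. Mouse embryonic stem cells (mESCs) were grown in N2B27 with PD0325901, CHIR99021 and mLIF and carried a Flag-tagged Cdx2 transgene on a lentivirus under a Tet-On promoter, a tetracycline switch turned on by DOX and unrelated to the Tet enzymes. RNA-seq covered 20 mESC libraries, 2 for each of 10 groups: WT, mCdx2-OE, rCdx2-OE, and 7 mutants of rCdx2 that took over the mouse residue at up to 3 positions of the DNA binding domain (DBD). Change 1 is Tyr to Phe, change 2 is Ala to Ser and change 3 deletes an Asn, so that R13, for example, carries changes 1 and 3. RMES cells, made by fusing haploid mouse with haploid rat stem cells, gave 4 RNA-seq libraries: 2 labelled WT, 1 mCdx2-OE and 1 rCdx2-OE, each counted for the mouse and for the rat allele. ATAC-seq compared WT with mCdx2-OE mESCs, and anti-Flag ChIP-seq compared mCdx2-OE with rCdx2-OE in mESCs and in RMES cells, with 1 library a group. Whether WT means parental cells or transgenic cells without DOX is not in the labels. Nor do they say that replicates came from separate cultures, so p-values measure only the spread between these libraries. Each construct is 1 labelled line, and construct and line cannot be told apart.

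Several properties of whole libraries moved with the groups. Cdx2 stood at 1.36 and 1.21 CPM (read counts normalised to library size) in WT mESCs and at 37.2 to 147 CPM in the 18 induced libraries. WT libraries held 74960057 and 94686029 counts and the induced ones 12698443 to 24315929. Markers of the fibroblasts that stem cells are often grown on were lower after induction, with Col1a1 at 14.8 and 15.1 CPM in WT and 0.83 to 3.24 CPM in induced cells, and 5 of 7 such markers tested were over 2-fold lower, while the sum of all 8, mostly Fn1, was 1835 and 1845 CPM in WT and 1669 to 3065 CPM after induction. Xist, the RNA that coats an inactive X chromosome, stood at 3.99 to 4.35 CPM (of all counts) in WT, 74.5 to 107 with intact Cdx2 and 1.66 to 8.3 in the 14 mutant libraries. In RMES cells the libraries labelled WT already held Cdx2 reads, 129 and 127 CPM on the mouse and 453 and 440 CPM on the rat allele. The mCdx2-OE library had 968 CPM of Cdx2 on the mouse and 47.2 CPM on the rat allele, and the rCdx2-OE library had 4.45 CPM on the mouse and 879.8 CPM on the rat allele. Cdx2 of the species that was not introduced was thus lower than in the libraries labelled WT, and the Cdx2-OE libraries of RMES cells are compared with libraries that also held Cdx2 RNA. Mitochondrial genes took 1.63% and 1.73% of counts in WT mESCs, 2.82% to 4.03% with intact Cdx2 and 3.86% to 5.58% in the mutants. They took 2.32% and 2.65% of mouse allele counts in the RMES libraries labelled WT against 0.0259% and 0.0313% in the Cdx2-OE libraries, and 0.00592% and 0.00775% of rat allele counts against 13.9% and 14.3%. The WT and Cdx2-OE RMES libraries therefore carried mitochondrial RNA of different species, and Cdx2 induction and a difference between lines cannot be told apart there. The part of each of these properties in the results that follow was not tested.

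In WT mESCs the level per length, in CPM for each kilobase of counted exons (RPKM), was highest for Uhrf1, at 207 and 213. Dnmt3l followed with 97.4 and 98.4 RPKM, Dnmt3b with 95.9 in both libraries and Dnmt1 with 85.3 and 86.7. Tet1 stood at 39.5 and 39.8 RPKM. Far lower came Dnmt3a at 9.90 RPKM in both libraries, Tet2 at 8.41 and 8.56, Tdg at 6.96 and 7.94 and Tet3 at 0.508 and 0.583. Neighbours in this order did not overlap, although each level rests on 2 libraries. After induction of mCdx2 or rCdx2 the order changed, with Tet2 at 19.3 to 22.0 RPKM above Dnmt3a at 2.75 to 2.86 RPKM, and Tet3 at 2.81 to 3.06 RPKM overlapping Dnmt3a. The naive markers (Pou5f1, Nanog, Zfp42, Klf4, Esrrb and 5 others) summed to 4469 and 4515 CPM in WT, 3326 to 3672 CPM with intact Cdx2 and 4208 to 5122 CPM in the mutants. The trophoblast markers, a list that includes Cdx2 itself, summed to 162 and 164 CPM in WT and 201 to 903 CPM after induction. Cdx2 reads are thus part of this rise. In replicate 2, mutants with change 3 summed to 201 to 231 CPM, and Cdx2 made up 37.2 to 44.3 CPM in these libraries. Primitive endoderm markers summed to 44.6 and 47.4 CPM in WT and at least 90.2 CPM in every induced library, with 5 of 7 over 2-fold higher and 0 lower on average. The part of these marker changes in the results was not tested.

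The de novo writers fell with every construct. Dnmt3l, the stimulating cofactor, had 291 and 294 CPM in WT. Its level was 65.2 and 54.9 CPM in mCdx2-OE and 69.1 and 58.2 CPM in rCdx2-OE cells. Among the mutants it was 38.0 and 39.2 CPM in R1, 45.6 and 46.6 in R2, 24.2 and 29.0 in R12, 10.6 and 10.4 in R3, 7.28 and 8.84 in R13, 7.58 and 9.14 in R23, and 5.84 and 7.44 in R123. All 18 induced libraries lay below both WT libraries, and the 8 with change 3 lay below all others. Averaged over the 9 constructs the log2 fold change of Dnmt3l was -3.78 ± 0.06 (SE, adjusted p = 1.58e-16), a level 13.8-fold lower.

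Dnmt3b, which writes methylation in early development, had 490 CPM in both WT libraries. It was at 110 and 117 CPM in mCdx2-OE, 109 and 133 CPM in rCdx2-OE, 184 to 239 CPM in the 6 libraries of R1, R2 and R12, and 93.2 to 134 CPM in the 8 libraries of R3, R13, R23 and R123. Mutants without change 3 thus kept the most Dnmt3b among induced cells, with no overlap with the other induced libraries. The average log2 fold change was -1.82 ± 0.05 (adjusted p = 8.08e-14). Dnmt3a, the second de novo enzyme, had 165 CPM in both WT libraries, 45.7 to 47.6 CPM in the 4 libraries with intact Cdx2 and 27.8 to 36.5 CPM (median 31.3) in the 14 mutant libraries. Here the mutants were lowest, whether or not they carried change 3. Its average log2 fold change was -2.24 ± 0.05 (adjusted p = 7.04e-15).

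The maintenance genes moved less. Uhrf1, the reader of hemimethylated sites, fell from 880 and 905 CPM in WT to 511 and 499 CPM in mCdx2-OE and 501 and 492 CPM in rCdx2-OE, and the 14 mutant libraries held 627 to 762 CPM (median 703). Dnmt1, the maintenance methyltransferase, went from 629.6 and 639.8 CPM in WT to 413 to 469 CPM with intact Cdx2 and 446 to 533 CPM in the mutants. For neither gene did an induced library reach the WT level. The average log2 fold changes were -0.45 ± 0.05 for Uhrf1 (adjusted p = 4.87e-07) and -0.42 ± 0.05 for Dnmt1 (adjusted p = 4.53e-07), both under 2-fold.

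Among the erasers, Tet2 and Tet3 rose and Tet1 depended on the construct. Tet2 went from 142 and 144 CPM in WT to 371 and 366 CPM in mCdx2-OE, 325 and 359 CPM in rCdx2-OE and 294 to 336 CPM (median 311) in the mutants, an average log2 fold change of 1.17 ± 0.06 (adjusted p = 2.07e-11). Tet3, the member that acts on the paternal genome of the zygote, went from 8.49 and 9.73 CPM to 46.9 and 51.1 CPM in mCdx2-OE and 48.5 and 49.0 CPM in rCdx2-OE, and to 14.9 to 19.2 CPM (median 15.9) in the mutants. The average log2 fold change of Tet3 was 1.20 ± 0.08 (adjusted p = 1.70e-09), with 2.42 for each intact protein and 0.74 to 0.98 over the 7 mutants. Tet1 had 610 and 615 CPM in WT, 444 and 490 CPM in mCdx2-OE, 389 and 465 CPM in rCdx2-OE and 671 to 887 CPM (median 799) in the mutants. Its 4 libraries with intact Cdx2 lay below WT and its 14 mutant libraries above, so that the average change of 0.18 ± 0.06 (adjusted p = 0.0215) describes neither class. The test against WT called Tet1 lower with both intact proteins (log2 fold change -0.52 and -0.39) and higher with 6 of the 7 mutants (0.20 to 0.48 over all 7).

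Tdg, which removes oxidised methylcytosine, changed little. It had 37.4 and 42.7 CPM in WT, 37.8 and 40.8 CPM in mCdx2-OE, 36.3 and 35.8 CPM in rCdx2-OE and 27.4 to 35.9 CPM (median 30.0) in the mutants. With intact Cdx2 the difference from WT did not pass the test (log2 fold change -0.15 and -0.03), and with each of the 7 mutants it was lower by less than 2-fold (-0.51 to -0.27).

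**Figure D1:**
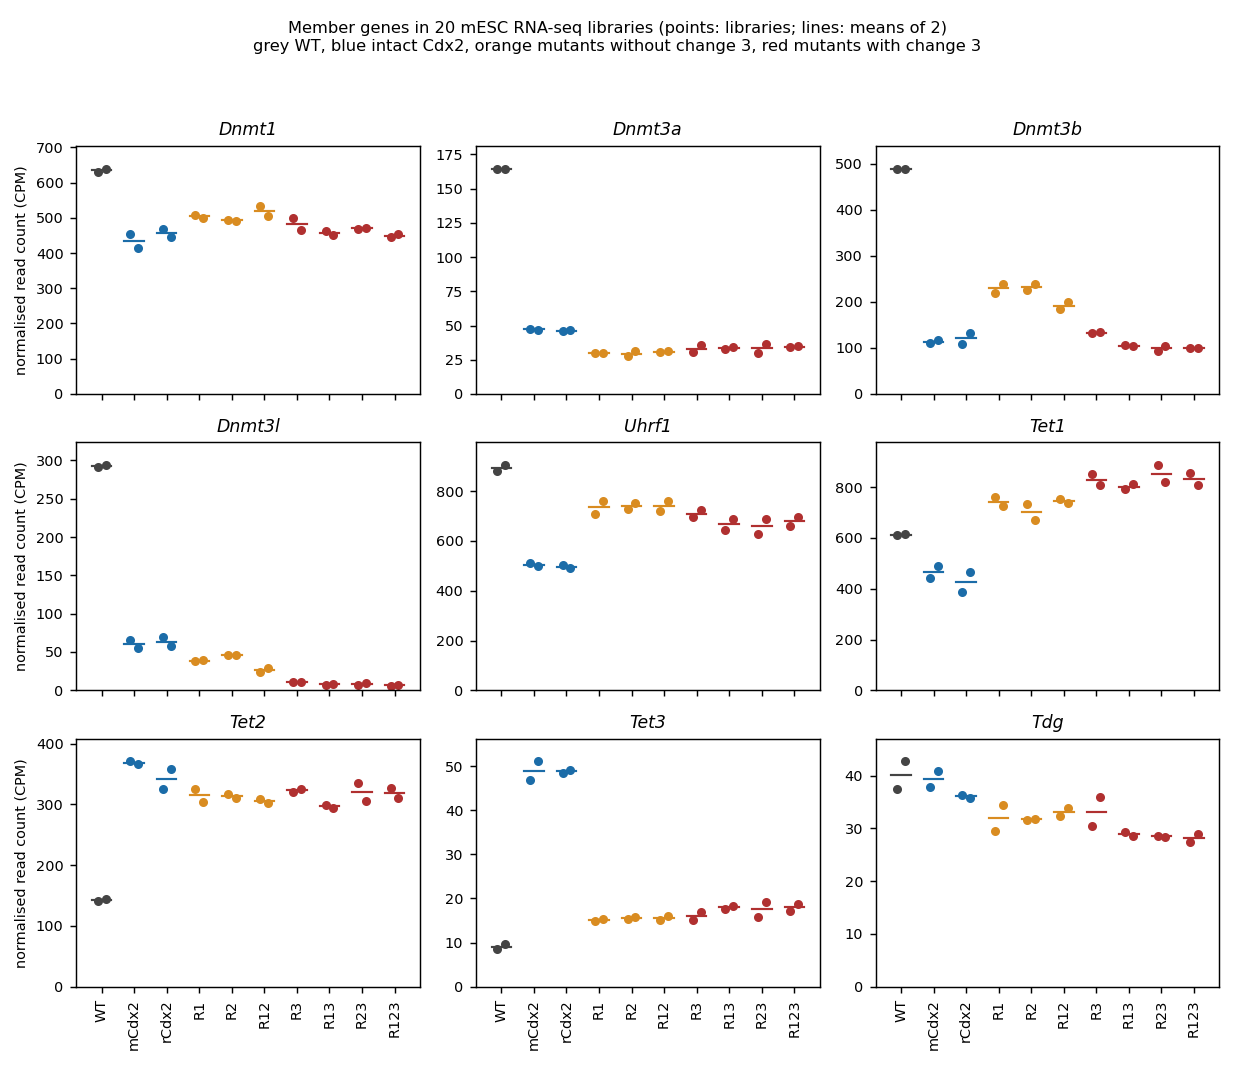
Levels of the 9 genes in the 20 mESC RNA-seq libraries, in CPM on linear axes from 0. Points are libraries, lines are means of 2, and colours mark WT (grey), intact mCdx2 and rCdx2 (blue), mutants without change 3 (orange) and mutants with change 3 (red). Dnmt3l falls from 291 and 294 in WT to 5.84 to 10.6 with change 3, and Tet3 is highest with the intact proteins, at 46.9 to 51.1.

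Counted over the average of the constructs, 5 of the 9 genes were called at an adjusted p under 0.05 and over 2-fold (Tet2 and Tet3 higher, Dnmt3a, Dnmt3b and Dnmt3l lower), where 26.7% of all 16000 genes tested were called, 13.2% higher and 13.5% lower. At any fold all 9 were called, 3 higher and 6 lower, against 74.7% of all genes (35.6% higher, 39.2% lower). The median log2 fold change was -0.42 over the 9 genes and -0.02 over all genes. In 7 of the 9 genes all 18 induced libraries lay on 1 side of WT. For Tet1 4 lay below and 14 above WT, and for Tdg 16 lay below and the rest between the 2 WT libraries. How common such a separation is over all genes was not computed. Tests of single constructs called 38 of 81 at over 2-fold, against 33.4% of all genes for mCdx2, 34.5% for rCdx2, 23.2% for R1, 23.4% for R2, 23.7% for R12, 25.6% for R3, 27.8% for R13, 28.7% for R23 and 28.9% for R123, and these contrasts share the WT libraries. Replicates were counted in separate tables. Within the first table the average differences in log2 CPM were -3.82 for Dnmt3l, -2.28 for Dnmt3a and 1.20 for Tet2, and within the second -3.75, -2.19 and 1.14. In bulk RNA, fewer cells of a type and less RNA per cell cannot be told apart.

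No difference between mCdx2 and rCdx2 was called in the 9 genes. The log2 differences ranged from -0.09 (Dnmt3b) to 0.13 (Tet1), with standard errors of 0.07 to 0.12. By edgeR 0 of the 9 differed, with 0 at an unadjusted p under 0.05 (5.36% of all genes) and 0 by DESeq2, and 3 of the 16000 genes (0.0188%) were called. A joint test among the 9 constructs called all 9 genes, with 56.9% of all genes called. The grouping described next was chosen after the levels had been seen.

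Mutants as a class differed from the 2 intact proteins in all 9 genes, where 64% of all genes were called. The mean of the 7 mutants was lower for Dnmt3l (log2 difference -1.99 ± 0.06), Tet3 (-1.56 ± 0.06), Dnmt3a (-0.54 ± 0.05), Tdg (-0.29 ± 0.06) and Tet2 (-0.18 ± 0.04). It was higher for Tet1 (0.81 ± 0.05), Uhrf1 (0.49 ± 0.04), Dnmt3b (0.32 ± 0.05) and Dnmt1 (0.11 ± 0.04). The sum of trophoblast markers, Cdx2 included, was 724 to 903 CPM in the 4 libraries with intact Cdx2 and 201 to 438 CPM in the mutants. Naive markers and Xist differed between the same classes as given above. R123 carries all 3 mouse residues in rCdx2, yet it lay with the other mutants and not with mCdx2-OE for Dnmt3l (5.84 and 7.44 CPM), Tet1 (855 and 807 CPM) and Tet3 (17.1 and 18.8 CPM).

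Change 3, the deleted Asn, went with the lowest Dnmt3l. A model with 1 term for each change, over 16 libraries (rCdx2 and all 7 mutants), gave change 3 a log2 difference of -2.34 ± 0.09 for Dnmt3l (adjusted p = 7.27e-11) and -0.82 ± 0.15 for Dnmt3b (adjusted p = 0.000466). Tet1 was higher (0.36 ± 0.10, adjusted p = 0.0104) and Tdg lower (-0.17 ± 0.06, adjusted p = 0.0258), so that 4 of 9 were called where 36.6% of all genes were. In this model rCdx2 was the only construct without a change, and no term stood for mutants against intact Cdx2. Its terms can therefore take up part of that difference. Changes 1 and 2 called 0 of the 9 and 0 of 15114 genes (0%) each by edgeR. What the terms cannot hold of the difference between mutants and rCdx2 enters the spread of this model. The absence of calls therefore does not show that changes 1 and 2 had no effect. At an unadjusted p under 0.05 each had 1 of the 9, Dnmt3l (13.2% and 10.4% of all genes), with log2 differences of -0.59 ± 0.09 (adjusted p = 0.0580) and -0.42 ± 0.09 (adjusted p = 0.471), and DESeq2 called Dnmt3l for both.

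Pairs of constructs were then matched. Against the construct with the same other changes, change 3 went with a Dnmt3l difference of -2.60 ± 0.13 (R3 against rCdx2), -2.25 ± 0.14 (R13 against R1), -2.45 ± 0.14 (R23 against R2) and -2.00 ± 0.15 (R123 against R12), all called. For Dnmt3b the first pair gave 0.14 ± 0.09 (adjusted p = 0.203) and the other 3 gave -1.13 ± 0.09, -1.23 ± 0.09 and -0.95 ± 0.09, each called. For Tet1 the first pair gave 0.96 ± 0.09 (called), and the others gave 0.11 ± 0.09, 0.28 ± 0.09 (called) and 0.16 ± 0.09. Tdg was not called in any pair (-0.12, -0.15, -0.16 and -0.23). The shares of all genes called in these pairs were 43.8%, 20.2%, 21.7% and 14.7%. Among mutants alone, carriers of change 3 differed from the others in 7 of 9 genes (42.7% of all genes), led by Dnmt3l (-2.12 ± 0.07) and Dnmt3b (-1.001 ± 0.05), the other 5 moving by at most 0.18. Tet2 and Tdg were not called there (0.02 ± 0.04 and -0.13 ± 0.05). Cdx2 reads, which do not separate transgene from endogenous RNA, went with the same split within each replicate. They stood at 145 to 147 CPM (replicate 1) and 60.6 to 68.8 CPM (replicate 2) in mutants without change 3. In those with it they stood at 61.9 to 94.4 and 37.2 to 44.3 CPM. Formative epiblast markers (Fgf5, Otx2, Pou3f1, Lef1, Sox3 and Zic2) summed to 162 to 181 CPM without change 3 and 92.5 to 119 CPM with it, beside 101 and 102 CPM in WT. The part of either in the Dnmt3l and Dnmt3b differences was not tested.

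**Figure D2:**
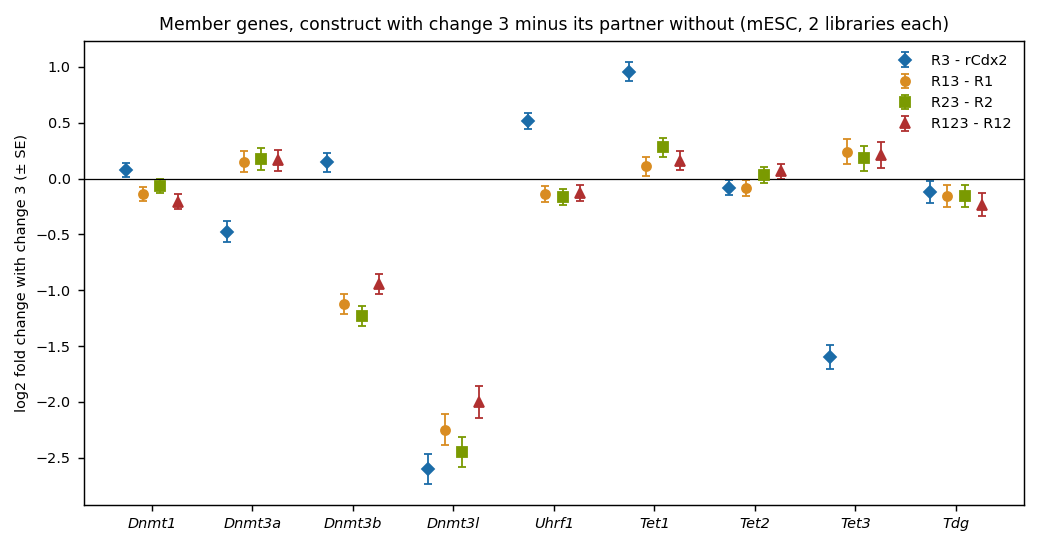
Log2 difference (± SE) between each construct with change 3 and its partner without it, for the 9 genes in mESCs, 2 libraries each. Dnmt3l is lower in all 4 pairs, by -2.60 to -2.00, and Dnmt3b is lower in the 3 pairs of mutants and not against rCdx2, where the difference is 0.14.

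In RMES cells the 2 genomes shared a nucleus, so that each library gave a mouse and a rat level of every gene. Lowest against WT stood Tet1 of the rat allele. Its level was 137 and 150 CPM in the libraries labelled WT, 21.3 CPM in mCdx2-OE and 28.7 CPM in rCdx2-OE, and the mouse allele of Tet1 had 456 and 514 CPM, then 226 and 254 CPM. The log2 fold changes were -2.52 ± 0.10 on the rat allele (adjusted p = 6.69e-12) and -1.02 ± 0.07 on the mouse allele (adjusted p = 4.66e-08). The 2 Cdx2-OE libraries, which hold different Cdx2 transgenes, formed 1 group.

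Tet2 moved in opposite directions on the 2 alleles. Rat Tet2 rose from 123.3 and 132 CPM to 289 and 346 CPM (log2 fold change 1.31 ± 0.08, adjusted p = 4.81e-10). Mouse Tet2 went from 243 and 256 CPM to 204 and 232 CPM (-0.19 ± 0.07, adjusted p = 0.0204). Dnmt3a moved the same way with a smaller rise, from 38.3 and 38.8 CPM to 53.1 and 53.4 CPM on the rat allele (0.47 ± 0.07). On the mouse allele Dnmt3a went from 81.1 and 76.2 CPM to 62.1 and 73.8 CPM (-0.21 ± 0.08, adjusted p = 0.0233). Neither gene's WT and Cdx2-OE libraries overlapped on either allele. This is not particular to them, since among the members only Tet3 on the rat allele overlapped. How common such a separation is over all genes was not computed.

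The other writers fell on both alleles by unequal amounts. Rat Dnmt3l went from 964 and 940 CPM to 350 and 328 CPM (-1.49 ± 0.06) and mouse Dnmt3l from 177 and 179 CPM to 122 CPM in both (-0.55 ± 0.05). Rat Dnmt3b went from 113 and 112 CPM to 47.2 and 34.3 CPM (-1.47 ± 0.10) and mouse Dnmt3b from 259 and 256 CPM to 143 and 119 CPM (-0.97 ± 0.08). Dnmt1 fell on the rat allele from 752 and 743 CPM to 396 and 376 CPM (-0.95 ± 0.06) and barely on the mouse allele, from 537 and 529 CPM to 485 and 492 CPM (-0.13 ± 0.05, adjusted p = 0.0442). Uhrf1 alone fell more on the mouse allele, from 935 and 916 CPM to 413 and 374 CPM (-1.23 ± 0.06), against 1378 and 1386 CPM to 713 and 665 CPM on the rat allele (-1.004 ± 0.06). All of these had an adjusted p under 0.05.

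Tdg rose on both alleles, from 68.7 and 69.2 CPM to 96.4 and 90.9 CPM on the mouse (0.44 ± 0.06) and from 48.9 and 47.0 CPM to 92.1 and 90.6 CPM on the rat allele (0.93 ± 0.06). Tet3 rose on the mouse allele from 36.9 and 41.3 CPM to 55.2 and 65.8 CPM (0.63 ± 0.09, adjusted p = 2.27e-05). Its rat allele had 58.8 and 69.7 CPM and then 55.4 and 75.3 CPM, which overlap (0.02 ± 0.11, adjusted p = 0.848). Dnmt3b, Dnmt3l, Dnmt1 and Uhrf1 were thus lower than WT in mESCs and on both RMES alleles, whereas Tdg, lower on average in mESCs, was higher on both. The 2 cell types were not tested against each other.

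Over 2-fold, 2 of 9 genes were called on the mouse allele (Uhrf1 and Tet1), both lower, where 44.5% of 16887 genes were called (28.3% higher, 16.1% lower). On the rat allele 5 of 9 were called, Tet2 higher and Tet1, Dnmt3l, Dnmt3b and Uhrf1 lower, where 42.5% of 14627 genes were (28.3% higher, 14.2% lower). At any fold the counts were 9 on the mouse allele (2 higher, 7 lower), against 81.9% of all genes (42.8% higher, 39.0% lower), and 8 on the rat allele (3 higher, 5 lower), against 82.5% (43.5% higher, 39.0% lower). The median log2 fold change of the 9 was -0.21 on the mouse and -0.95 on the rat allele, beside 0.08 and 0.07 over all genes. Leaving out WT replicate 2 took mouse Tet1 to -0.94, and leaving out rCdx2-OE took rat Uhrf1 to -0.95, each under 2-fold. Naive markers summed to 7764 and 7776 CPM on the mouse allele of WT and to 2940 and 2971 CPM with Cdx2, and to 5105 and 5154 CPM and then 1765 and 1868 CPM on the rat allele. Formative epiblast markers summed to 74.4 and 76.3 CPM and then 18.9 to 25.2 CPM on the mouse allele, while trophoblast markers went from 299 and 311 CPM to 1130 and 1962 CPM. Primitive endoderm markers summed there to 236 and 242 CPM and then 52.2 to 55.0 CPM, although 4 of the 7 were over 2-fold higher and 1 lower. On the rat allele formative markers went from 344 CPM in both to 95.8 and 110 CPM and trophoblast markers from 742 and 774 CPM to 1019 and 1955 CPM. The sum of primitive endoderm markers went from 434 and 448 CPM to 304 and 346 CPM, although 3 of the 7 were over 2-fold higher and 0 lower. Sums of fibroblast markers went on the rat allele from 4214 and 4374 CPM to 1591 and 1600 CPM, and had 1386 and 1389 CPM and then 1291 and 1482 CPM on the mouse allele. All of these sums but that of fibroblast markers on the mouse allele moved with the members' changes, and their part was not tested. Those of trophoblast markers include Cdx2 itself, whose level in each library is given above.

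Whether the alleles responded differently was itself tested, in 1 model over both allele tables that paired the 2 alleles of each library, and the test passed for all 9 genes, where 62.1% of 13605 genes passed. The response of the mouse allele minus that of the rat allele was largest for Tet2 (log2 -1.53 ± 0.05, adjusted p = 1.56e-17) and Tet1 (1.49 ± 0.07, adjusted p = 3.17e-15). Positive differences, a smaller fall or larger rise on the mouse allele, were also found for Dnmt3l (0.92 ± 0.04), Dnmt1 (0.80 ± 0.03), Tet3 (0.59 ± 0.07) and Dnmt3b (0.48 ± 0.05). Dnmt3a (-0.70 ± 0.07), Tdg (-0.51 ± 0.06) and Uhrf1 (-0.25 ± 0.02) had negative ones. Mouse reads made up 79.8% and 80.4% of Tet1 reads in the libraries labelled WT and 92.2% and 90.6% with Cdx2, whereas for Tet2 the share fell from 70.0% and 69.9% to 44.1% and 42.3%. For Dnmt1 it went from 45.8% and 46.0% to 57.8% and 58.8%. Over all genes but the mitochondrial ones the mouse share was 55.5% and 55.6% and then 54.6% and 54.4%.

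**Figure D3:**
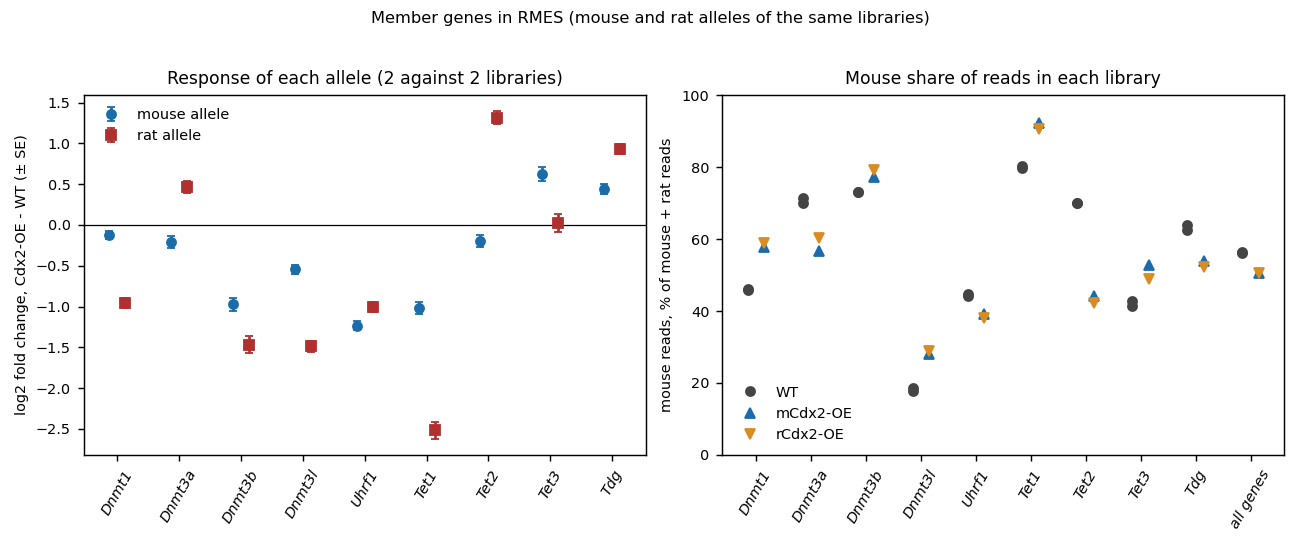
The 9 genes in RMES cells. Left, log2 fold change (± SE) of Cdx2-OE against WT for the mouse (blue circles) and rat (red squares) allele, 2 libraries against 2. Right, mouse reads as a percentage of mouse plus rat reads in each library, with all genes last. That last share includes mitochondrial genes, unlike the one in the text, and went from 56.1% and 56.3% in WT to 50.7% and 50.6% with Cdx2. Tet2 lies at -0.19 on the mouse and 1.31 on the rat allele, and the Tet1 share is 90.6% or more with Cdx2.

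Allele levels within WT also differed. In counts, mouse exceeded rat for Tet1 (log2 1.70), Dnmt3b (1.13), Dnmt3a (0.97), Tet2 (0.91) and Tdg (0.46), and rat exceeded mouse for Dnmt3l (-2.48), Tet3 (-0.78), Uhrf1 (-0.64) and Dnmt1 (-0.55). Counted gene models differ between the builds, with 16642 bases for mouse and 4289 for rat Dnmt3a and 15457 and 6102 for Tet1, so that these ratios of counts, unlike the responses, depend on annotation. Per length, Dnmt3l had 59.4 and 60.0 RPKM on the mouse and 571 and 557 RPKM on the rat allele. Tet1 had 29.5 and 33.2 RPKM on the mouse allele and 22.4 and 24.6 RPKM on the rat allele, a narrower gap than in counts. For 3 of the 5 genes with more mouse counts the order turned per length: Dnmt3a had 4.87 and 4.58 RPKM on the mouse and 8.93 and 9.05 RPKM on the rat allele, Tet2 had 14.4 and 15.2 against 15.9 and 17.0 RPKM, and Tdg had 12.8 and 12.9 against 13.9 and 13.3 RPKM. Dnmt3b kept its order, with 50.7 and 50.2 RPKM on the mouse and 34.4 and 34.1 RPKM on the rat allele. Which allele is the higher for Dnmt3a, Tet2 and Tdg therefore depends on the scale.

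The genes lie, in GRCm38, at chr9:20907209-20959888 (Dnmt1), chr12:3806007-3914443 (Dnmt3a), chr2:153649450-153687730 (Dnmt3b), chr10:78041947-78063622 (Dnmt3l), chr17:56303321-56323486 (Uhrf1), chr10:62804570-62908996 (Tet1), chr3:133463679-133545139 (Tet2), chr6:83362373-83459084 (Tet3) and chr10:82629828-82650799 (Tdg), with Dnmt1 and the Tet genes on the minus strand. Chromatin near them held 157 of the 122350 ATAC peaks, of which 118 had at least 40 scaled reads. With 1 library a group there is no test, and a peak is said to have opened or closed when its scaled reads differed more than 2-fold. Of the 118 peaks 7 opened and 25 closed with mCdx2, against 13.7% and 20.5% of all such peaks. Distances of peaks run from the outermost annotated start of a gene. Tet1 held 11 of the closed ones among its 22. They include the large peaks centred 14664 and 10346 bases inside that start, both over exons annotated as UTR. These went from 483 to 167 and from 416 to 157 scaled reads (log2 -1.53 and -1.40). The RefSeq promoter window of Tet1, chr10:62887275-62887574, lies deeper in the gene, so that both peaks are upstream of it. Uhrf1 had 4 closed, Dnmt1 3 and Dnmt3l 2, and none opened in these 3 genes. Tet3 had 2 opened and none closed. They went from 44.7 to 112 scaled reads 2184 bases inside the outermost start and from 23.5 to 86.9 in an intron 31035 bases inside. The RefSeq promoter window of Tet3, chr6:83441629-83441928, lies between these 2 peaks. Dnmt3a had 2 of each kind and Dnmt3b 1 of each. None of the 11 peaks over an annotated RefSeq start passed 2-fold, the highest being 0.97 (Tet3), 0.88 (Dnmt3l) and 0.86 (Tet2), and the Tet1 peak gave -0.39. The share of peaks over starts that pass 2-fold among all genes was not computed, so this count is not particular to the members. RNA of Dnmt3l and Dnmt3b fell, and the peaks at their starts held log2 ratios of 0.54, 0.88 and 0.26, from 1 library a group.

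Cdx2 ChIP peaks of mESCs were found 27 times near these genes, of 91665 in all. Tet1 had 9, Tet2 5, Dnmt3b, Uhrf1 and Tet3 3 each, Dnmt3a and Tdg 2 each, and Dnmt1 and Dnmt3l none in this window. mCdx2 and rCdx2 gave like counts, with 1 peak over 2-fold higher with rCdx2 (0.417% of all peaks) and none higher with mCdx2 (0.377%). The columns were read as mCdx2 and rCdx2 from their short names, and the description of 1 of these samples names the other protein, so that this direction is less certain than the peaks themselves. In RMES cells 14 mouse peaks lay near the genes, none over 2-fold apart (0.814% and 1.03% of all), and 13 of them overlapped an mESC peak, as 80.1% of all RMES peaks did. Of the 157 ATAC peaks 16 overlapped a Cdx2 peak, beside 14.8% of all. Both peaks of Tdg lay inside its opened ATAC peaks, which reached 99.1 scaled reads upstream (log2 ratio 2.25) and went from 15.3 to 80.8 inside the gene (2.33). Tdg RNA with mCdx2 stood at a log2 fold change of -0.03 ± 0.10 (adjusted p = 0.809) in the same cells.

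**Figure D4:**
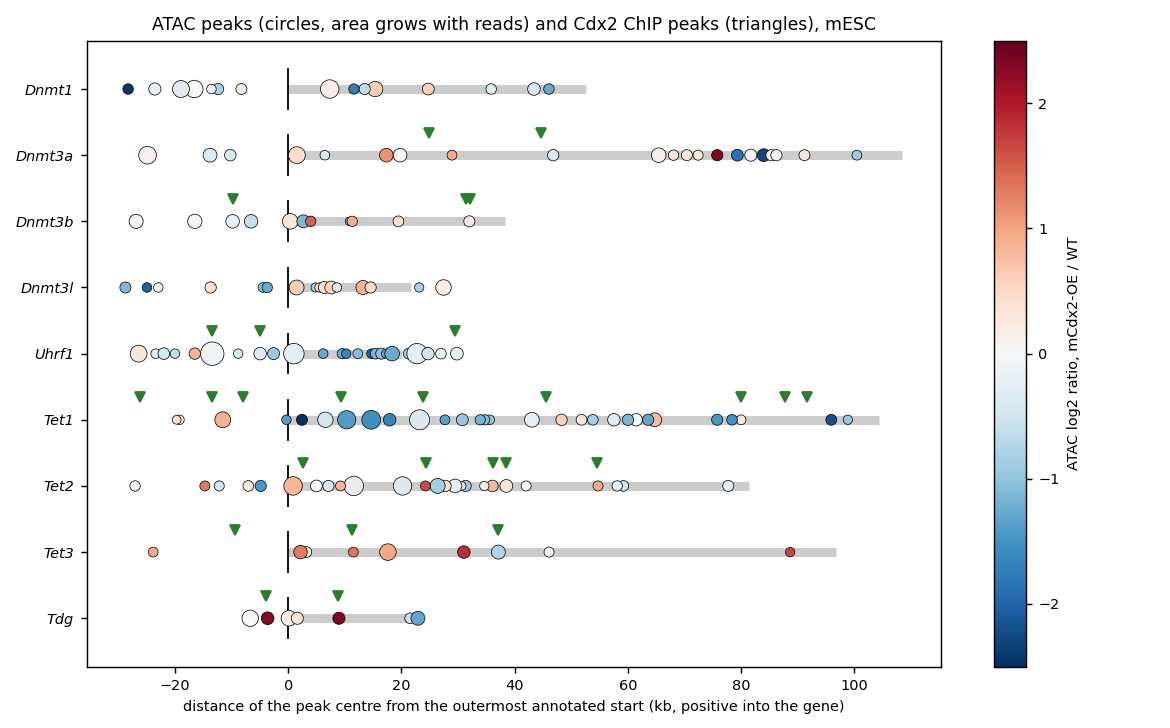
Peaks near the 9 genes in mESCs, by distance of the peak centre from the outermost annotated start in kb. Circles are ATAC peaks, with area growing with reads and colour giving the log2 ratio of mCdx2-OE to WT (1 library each), triangles are Cdx2 ChIP peaks and grey bars are the genes. The 11 closed peaks of Tet1 appear in blue, and the opened peaks of Tdg, at log2 2.25 and 2.33, lie under its 2 Cdx2 peaks.

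Stretches of 6 Cdx2 peaks are printed because they carry the binding described here: the 2 peaks in opened chromatin at Tdg, the strongest peaks of Tet1 and Tet2, the upstream Tet3 peak seen in both cell types and the Dnmt3b peak that differed between the proteins. They are stretches of up to 300 bases inside the peaks, from the plus strand of GRCm38, and capitals mark CCATAAA or CAATAAA, the core letters read by Cdx2, on either strand (TTTATGG or TTTATTG in reverse). The motifs were searched on both strands without mismatches and, differing in 1 letter, cannot match at the same place.
Tdg, chr10:82625751-82626050: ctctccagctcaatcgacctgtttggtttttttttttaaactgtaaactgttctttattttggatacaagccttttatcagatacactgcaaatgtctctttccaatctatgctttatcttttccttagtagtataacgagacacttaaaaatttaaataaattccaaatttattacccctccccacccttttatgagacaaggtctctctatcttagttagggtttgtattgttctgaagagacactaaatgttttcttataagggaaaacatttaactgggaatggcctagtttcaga
Tdg, chr10:82638401-82638700: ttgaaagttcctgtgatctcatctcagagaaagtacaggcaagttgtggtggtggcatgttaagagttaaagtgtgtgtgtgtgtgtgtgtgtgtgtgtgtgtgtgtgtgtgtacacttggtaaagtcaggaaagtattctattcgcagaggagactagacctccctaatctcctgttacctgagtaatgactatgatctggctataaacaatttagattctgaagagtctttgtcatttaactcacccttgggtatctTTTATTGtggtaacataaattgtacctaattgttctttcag
Tet1, chr10:62885040-62885339: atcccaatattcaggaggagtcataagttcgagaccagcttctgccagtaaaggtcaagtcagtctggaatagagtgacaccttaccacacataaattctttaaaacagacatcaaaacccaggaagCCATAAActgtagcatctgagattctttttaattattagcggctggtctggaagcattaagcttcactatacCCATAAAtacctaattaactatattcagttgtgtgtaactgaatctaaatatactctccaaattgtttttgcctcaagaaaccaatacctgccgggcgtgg
Tet2, chr3:133490375-133490674: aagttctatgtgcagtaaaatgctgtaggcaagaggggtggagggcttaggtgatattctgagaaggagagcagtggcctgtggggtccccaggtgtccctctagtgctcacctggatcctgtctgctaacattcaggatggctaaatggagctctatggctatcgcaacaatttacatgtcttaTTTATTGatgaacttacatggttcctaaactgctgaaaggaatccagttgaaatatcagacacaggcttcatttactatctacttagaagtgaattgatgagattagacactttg
Tet3, chr6:83468256-83468555: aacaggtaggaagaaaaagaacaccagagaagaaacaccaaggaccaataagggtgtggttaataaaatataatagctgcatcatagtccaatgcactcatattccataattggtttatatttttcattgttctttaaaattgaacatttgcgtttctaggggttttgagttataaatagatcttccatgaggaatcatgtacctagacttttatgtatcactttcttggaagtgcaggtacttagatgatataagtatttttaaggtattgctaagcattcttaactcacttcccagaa
Dnmt3b, chr2:153639597-153639885: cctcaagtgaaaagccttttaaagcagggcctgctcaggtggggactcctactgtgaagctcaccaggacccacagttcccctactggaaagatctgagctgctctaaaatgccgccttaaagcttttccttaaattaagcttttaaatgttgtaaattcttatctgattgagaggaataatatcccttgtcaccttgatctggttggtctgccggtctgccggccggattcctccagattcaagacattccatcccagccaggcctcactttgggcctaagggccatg

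The Tet1 stretch, in an intron 23806 bases inside the outermost annotated start, held 2 copies of CCATAAA. It had 92.7 scaled reads with mCdx2 and 104 with rCdx2, and lies downstream of the RefSeq promoter window of Tet1 (chr10:62887275-62887574). The Tet2 stretch, in an intron 54614 bases inside, held 1 copy and had 115 and 89.1 scaled reads. At Tdg the intragenic stretch held 1 copy with 64.3 and 67.9 scaled reads, and the upstream one, with 68.1 and 62.6, held none. The Tet3 stretch, at -9322 bases from the outermost annotated start and farther from the RefSeq one, held no copy. It had 38.8 and 22.3 scaled reads, below 2-fold. The Dnmt3b stretch, at -9709 bases, held none either and had 16.1 scaled reads with mCdx2 and 37.1 with rCdx2 (log2 -1.16), a peak of low reads. Over central windows of 300 bases, either motif lay in 11 of the 27 peaks (40.7%), in 43.7% of all mESC Cdx2 peaks, in 10.6% of ATAC peaks, in 7.2% of 32851 RefSeq promoter windows and in 0 of the 16 promoter windows of the 9 genes. A match of letters is a description and not a site.

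Other genes of the pathway were taken as 6 lists of 55 genes. Of 54 tested in mESCs 21 rose and 25 fell at any fold on average over the constructs, with 1 rising and 4 falling over 2-fold and a median log2 fold change of 0.03. Of all genes 35.6% rose and 39.2% fell at any fold and 26.7% passed 2-fold, so that the lists' count at any fold was near that of all genes and their count over 2-fold below it. Partners of maintenance gave 3 rises and 5 falls among 9, and partners of de novo methylation 4 and 3 among 8. Partners of Tet enzymes gave 4 and 2 among 7, readers of methylated CG 5 and 1 among 8, repair genes 3 and 8 among 13 and the methyl donor cycle 2 and 6 among 9. Lin28a, an RNA-binding protein of pluripotent cells, changed most (314 and 320 CPM in WT, 28.7 to 110 CPM induced, log2 fold change -2.52 ± 0.05). Mbd3, a subunit of the NuRD corepressor, went from 208 and 209 CPM to 64.2 to 112 CPM (-1.22 ± 0.08), and Apex1, the endonuclease of base excision repair, from 335 and 332 to 114 to 213 CPM (-1.05 ± 0.08). Neil3, a glycosylase of oxidised bases, rose from 3.94 and 4.01 to 4.89 to 13.6 CPM (1.098 ± 0.11). Neil2, named after its value was seen, was also over 2-fold lower (-1.03). Under 2-fold were Trim28 (-0.99), Kdm2b (-0.95), Cdca7 (-0.87), Cxxc1 (-0.77) and Shmt1 (-0.59), which fell, and Zbtb4 (0.96) and Idh1 (0.65), which rose. In RMES cells 50 of 55 list genes were called at any fold on the mouse allele (16 higher, 34 lower) and 45 of 54 on the rat allele (11 higher, 34 lower), beside 81.9% (42.8% higher, 39.0% lower) and 82.5% (43.5% higher, 39.0% lower) of all genes, with Lin28a at -3.06 and -2.98, Apex1 at -1.64 and -1.69, Mbd3 at -0.97 and -1.41 and Neil3 at 1.19 and 1.40.

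Genes whose 9 log2 fold changes against WT lay nearest to those of a member were found by the root mean square difference over the constructs. The nearest to Dnmt1 was Sept11 (0.0317), to Uhrf1 Ybx3 (0.0337), to Tet2 the proliferation marker Mki67 (0.0678), to Tet1 Gm17768 (0.0682) and to Tdg P3h1 (0.0717). Tet3 was nearest to Zfp185 (0.104), Dnmt3a to Psmb10 (0.116) and Dnmt3b to Supt4a (0.199). Dnmt3l had no close match, its nearest gene being Slc39a14 at 0.349.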

How the data were processed

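RNA-seq, ATAC-seq and ChIP-seq values were read counts deposited by the authors. Per the study's methods, RNA reads were aligned to mm10 with STAR 2.7.0d and counted by gene name with featureCounts, and RMES reads were assigned to mm10 or rn6 by edit distance. ATAC and ChIP reads were aligned with Bowtie2 2.3.4.3 and counted in MACS2 peaks. The mESC replicates came in separate tables, of which the 19919 shared genes were used. Depth was 12698443 to 94686029 counts per mESC library and 29453412 to 41418817 per RMES allele table.

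Counts were scaled by TMM, filtered by filterByExpr and tested with edgeR 4.0.16 (quasi-likelihood, R 4.3.3), with Benjamini-Hochberg adjustment over all genes tested and a call at an adjusted p under 0.05. DESeq2 1.42.0, other scaling and filters and leaving out each library were alternatives. The fits were tested on simulated counts. Peak reads were scaled between libraries and 1 was added before log2 ratios, with no test, since each group had 1 library. Sequences came from the GRCm38 genome and promoter windows from RefSeq.

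The members and lists were chosen with earlier results of these data known. Named genes were the 9 members, Cdx2, Dppa3, the 2 genes of each pathway list with the largest called change on average in mESCs, and the nearest gene of each member with a mean of at least 50 counts. Xist, Neil2 and the mitochondrial genes were added after their values had been seen, and single cell-type markers are named as examples of their lists. A gene that this rule names is not reported here. Same-numbered mESC libraries were not treated as paired in the main fits. Over 45 pairs of groups the correlations of deviations ran from -0.14 to 0.453, with 21 over 0.1. Cdx2 was higher in replicate 1 than in replicate 2 in both mutant classes, as given above. A replicate block was fitted as an alternative. Replicates differed by more than sampling noise. Columns of per-sample values left unused numbered 0.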

Additional observations from a re-analysis of the deposited data

Results flagged for a closer look

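All 9 genes were picked out because their mouse and rat alleles differed in response to Cdx2-OE in RMES cells by a direct test of the difference (edgeR, 2 libraries against 2, every adjusted p under 0.05). The response of the mouse allele minus that of the rat allele, in log2, was -1.53 for Tet2, 1.49 for Tet1, 0.92 for Dnmt3l, 0.80 for Dnmt1, -0.70 for Dnmt3a, 0.59 for Tet3, -0.51 for Tdg, 0.48 for Dnmt3b and -0.25 for Uhrf1. Of all genes 62.1% passed the same test. For Tet2 and Dnmt3a the alleles moved in opposite directions, and Dnmt1 fell by 0.95 on the rat and 0.13 on the mouse allele. No group held 4 to 10 samples, so single samples were not screened.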

How the results depend on the processing

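Of 1440 alternative values of single genes, 1402 kept their side of the threshold and 12 gained and 26 lost a call. Among values called in the main or the alternative fit 0 reversed direction. The direction of values called in neither was not compared. Dropping the 2-fold limit gave 9 called genes for the average (5 with it), 78 of 81 for single constructs (38), 9 for the RMES mouse allele (2) and 8 for the rat allele (5). For change 1 the count was 1 (Dnmt3l) without a filter and by DESeq2, and for change 2 it was 1 by DESeq2, against 0. Over all genes the mCdx2 and rCdx2 libraries differed in 3 genes by edgeR, 19 by DESeq2 and 1 without a filter, without mitochondrial genes or with the replicate block, and in 0 to 1 with any of the 4 libraries left out. With each library left out in turn the counts ranged from 5 to 5 for the average, 38 to 41 for single constructs, 7 to 9 among constructs, 8 to 9 for mutants against intact Cdx2, 3 to 5 for change 3, 4 to 7 for change 3 among mutants (4 without R12 replicate 1), 0 to 1 for change 1 (1 without R3 or R123 replicate 2), 1 to 2 for the mouse allele (1 without WT replicate 2), 4 to 5 for the rat allele and 9 to 9 for the difference between alleles. The replicate block left the average at 5 and single constructs at 38, and gave 8 against 7 for change 3 among mutants. Opened ATAC peaks (7) became 21 without scaling, 11 without a minimum and 14 within 100 kb. Closed ones (25) became 11, 15 within 30 kb of a start only and 44 within 100 kb, of 285 peaks. Cdx2 peaks (27) became 16 and 52 under these windows, with 0 higher with rCdx2 without scaling. RMES peaks (14) became 9 within 30 kb, and 1 was higher with rCdx2 when 1 was not added. The causes were not tested. The split of opened and closed peaks thus depends on the scaling, and every ATAC and ChIP ratio rests on 1 library a group. Without mitochondrial genes, an alternative chosen after seeing the data, the RMES counts stayed at 2, 5 and 9.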

Other observations

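Dppa3, a maternal factor that keeps Uhrf1 away from chromatin, moved in opposite directions on the 2 alleles of RMES cells. The mouse allele had 10.1 and 8.89 CPM in the libraries labelled WT and 30.9 and 29.2 CPM with Cdx2 (log2 fold change 1.66 ± 0.10). The rat allele of Dppa3 had 485 and 499 CPM and then 158 and 138 CPM (-1.73 ± 0.07). The difference in response was 3.38 ± 0.07 (edgeR, adjusted p = 1.25e-21). In mESCs Dppa3 went from 43.8 and 44.3 CPM in WT to 50.7 to 103 CPM in induced cells (0.70 ± 0.07), and its 8 libraries with change 3, at 77.1 to 103 CPM, lay above the 10 others.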
